A study of Homo sapiens with 4 samples.

Results

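The promoters of MORC1, MORC3, MORC4 and SMCHD1 were examined for a change in chromatin accessibility after loss of MORC2, to ask whether the relatives of the missing protein respond to its absence. The members are the MORC paralogues of the knocked-out gene, together with SMCHD1, and they were taken by gene symbol from a table of ATAC-seq counts per promoter. All 4 were present among its 28775 rows, and all 4 passed the filter on low counts that left 27647 rows for testing. In ATAC-seq accessible DNA is cut and tagged by the Tn5 transposase, so that the number of fragments over a promoter reports how open it is. It does not measure RNA or protein. The libraries came from HEK293T, a human embryonic kidney line, with 2 wild-type (WT) libraries and 2 MORC2 knockout (KO) libraries. Per the labels and the methods of the study, each KO library was made from a bulk pool edited with Cas9 and its own guide RNA, guide 1 for KO replicate 1 and guide 2 for KO replicate 2, so that guide and replicate cannot be told apart. A bulk pool is not a clone and may hold cells that keep a working allele. The labels name no other agent in either group, and the identity of the line was taken from them.

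MORC proteins belong to the GHKL ATPases, named after gyrase, Hsp90, histidine kinase and MutL, which dimerise through their ATPase heads when they bind ATP. In MORC proteins the head is followed by a CW-type zinc finger, which in some members reads methylated histone tails, and by coiled coils. MORC2 works with the HUSH complex in silencing. MORC1 is a germline protein that represses transposons in male germ cells, MORC3 resides in PML nuclear bodies, and MORC4 is a less studied paralogue on the X chromosome. SMCHD1 joins a GHKL ATPase head to the hinge domain of SMC proteins, and is needed for silencing on the inactive X chromosome, at imprinted genes and at clustered protocadherins.

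The promoter sequences are shown because accessibility was counted around these starts and its level differed widely between members. They are from RefSeq on GRCh38.p14, whereas the counts were made on the CHM13 assembly, and each holds 250 bases before and 50 bases after the annotated start, 5′ to 3′ on the strand of the gene. Capitals mark matches, on either strand, to 6 motifs that were searched: the GC box GGGCGG, the CCAAT box, the TATA box with letters TATAAA, the E-box with letters CACGTG, the NRF1 core with letters GCATGCGC and the ETS core with letters CGGAAGT. A match is a description of the letters and not a binding site.
MORC1, chr3:109118085-109118384, minus strand: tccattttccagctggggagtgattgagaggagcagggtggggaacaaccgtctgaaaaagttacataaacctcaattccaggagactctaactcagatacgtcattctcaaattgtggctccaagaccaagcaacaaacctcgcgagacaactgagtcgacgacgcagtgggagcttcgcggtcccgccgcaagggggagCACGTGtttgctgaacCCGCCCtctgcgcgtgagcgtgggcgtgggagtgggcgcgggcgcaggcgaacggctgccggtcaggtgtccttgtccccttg
MORC3, chr21:36319947-36320246, plus strand: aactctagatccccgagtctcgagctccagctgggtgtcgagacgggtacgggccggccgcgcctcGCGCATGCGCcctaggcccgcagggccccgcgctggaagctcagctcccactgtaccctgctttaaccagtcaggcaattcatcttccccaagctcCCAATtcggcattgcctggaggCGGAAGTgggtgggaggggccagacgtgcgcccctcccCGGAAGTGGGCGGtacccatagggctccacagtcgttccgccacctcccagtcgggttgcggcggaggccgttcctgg
MORC4, chrX:107000163-107000462, minus strand: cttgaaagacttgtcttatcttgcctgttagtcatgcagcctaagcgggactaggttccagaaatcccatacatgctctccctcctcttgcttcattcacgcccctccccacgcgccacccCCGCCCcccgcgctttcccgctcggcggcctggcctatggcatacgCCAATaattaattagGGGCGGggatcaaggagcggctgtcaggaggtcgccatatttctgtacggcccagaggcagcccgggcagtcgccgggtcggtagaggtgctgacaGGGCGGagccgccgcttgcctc
SMCHD1, chr18:2655476-2655775, plus strand: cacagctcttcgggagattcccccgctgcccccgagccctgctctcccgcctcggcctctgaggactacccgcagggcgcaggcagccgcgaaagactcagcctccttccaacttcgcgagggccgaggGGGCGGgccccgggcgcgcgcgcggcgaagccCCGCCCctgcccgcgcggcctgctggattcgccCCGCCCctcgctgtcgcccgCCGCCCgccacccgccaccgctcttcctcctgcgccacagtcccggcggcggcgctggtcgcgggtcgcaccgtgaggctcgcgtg

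The share of G and C had a median of 61.7% over the 19083 tested rows that have such a window. It was below this in MORC1 (58.7%), at it in MORC4 (61.7%), and above it in MORC3 (67.3%) and SMCHD1 (77.3%). SMCHD1 held 44 CpG dinucleotides, more than 94.9% of those rows, while MORC4 held 22, MORC1 held 23 and MORC3 held 26, near the median of 20. The GC box was present in all 4 members, with 4 matches in SMCHD1, 3 in MORC4 and 1 each in MORC1 and MORC3, and it was present in 54.3% of all windows. None of the 4 held the TATA box, which 9.91% of windows hold. The E-box was found in MORC1 alone among the 4, starting 49 bases before the start, and in 8.30% of windows. MORC3 was the member with both the NRF1 core (3.92% of windows) and the ETS core (9.03% of windows). Its NRF1 matches, 1 on each strand, overlap in a single palindrome, and its ETS matches begin 66 and 28 bases before the start, the latter directly followed by the GC box. A CCAAT box was found in MORC3 and MORC4, and in 36.0% of windows.

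The libraries held between 9435801 and 15152636 promoter counts, of which mitochondrial rows took 20.6% to 35.1%, the lowest share being that of KO replicate 2, also the deepest library. Counts were scaled with TMM, which sets libraries to a common level from the bulk of promoters, and are given as CPM, counts relative to the scaled size of the library. MORC2 itself yielded 403 fragments (KO replicate 1), 639 (KO replicate 2), 247 (WT replicate 1) and 267 (WT replicate 2). Its promoter was more open in the KO, by 0.43 on the log2 scale (SE 0.087; edgeR quasi-likelihood test, adjusted p 0.000279). The row of TUG1, whose start lies within 2 kb, counts nearly the same fragments, and promoter counts do not check the edit. MORC2 was not called with total count scaling, with DESeq2 or without KO replicate 2 (adjusted p 0.240, 0.363 and 0.0837).

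None of the 4 relatives passed the test in MORC2 KO cells. Of all tested promoters 4.45% were called at an adjusted p under 0.05 by the quasi-likelihood test of edgeR, 3.45% higher and 0.995% lower in the KO. The split depended on the scaling, with 954 higher and 275 lower under TMM, 216 and 172 with loess offsets, and 19 and 1 with total count scaling. The log2 fold changes of the members were −0.12 at MORC1, 0.02 at MORC3, 0.13 at MORC4 and 0.21 at SMCHD1, with a median of 0.07 against −0.02 over all tested promoters. At an unadjusted p under 0.05 there was 1 of the 4, SMCHD1, against 20.3% of all promoters. The KO and WT libraries did not overlap at 3 of the 4, against 50.6% of all promoters. The KO pair was above the WT pair at MORC4 and SMCHD1 (25.2% of all promoters) and below it at MORC1 (25.4% of all promoters). With 2 libraries a group, an exact permutation test of a single promoter cannot give a two-sided p below 0.333, and the spread of the WT libraries was the larger at MORC3, MORC4 and SMCHD1.

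**Figure D1:**
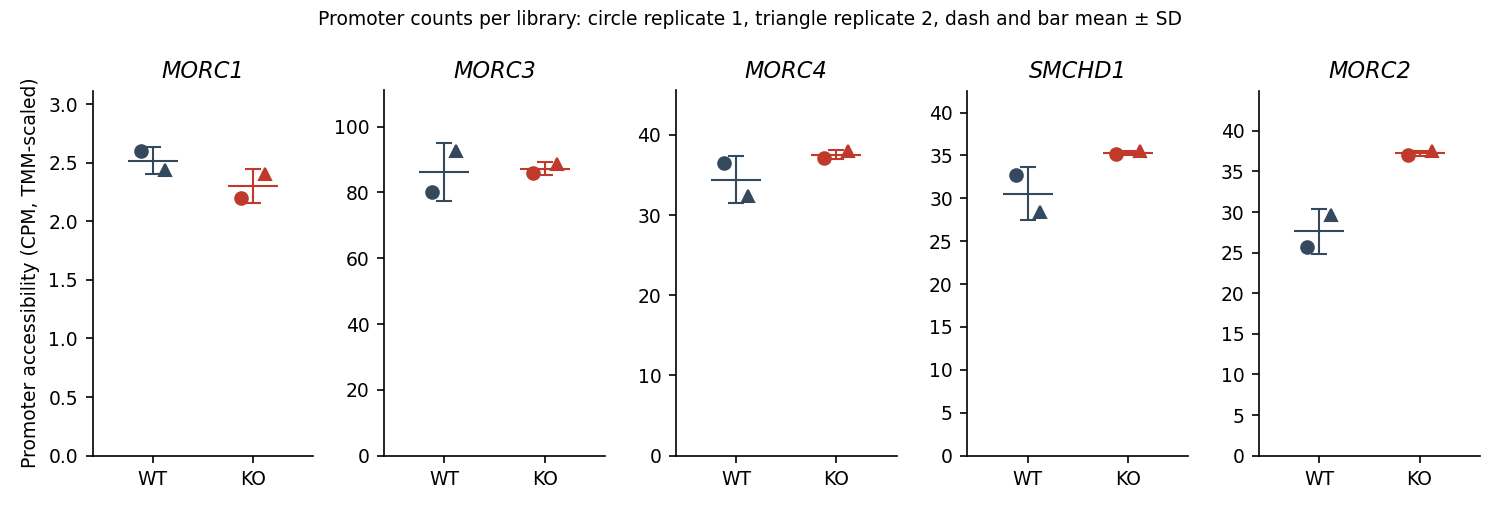
Promoter accessibility (vertical axis, TMM-scaled CPM from 0, with its own scale in each panel) of the 4 relatives and MORC2 in WT and MORC2 KO cells. Circles are replicate 1, triangles replicate 2, and dashes with bars the mean ± SD of the 2 libraries, and a reader should see that the groups overlap at MORC3 and lie apart by the widest relative gap at MORC2.

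The promoter of SMCHD1 (Gene ID 23347, chromosome 18), the non-canonical SMC protein, had the largest log2 fold change of the 4. It yielded 383 fragments (KO replicate 1), 605 (KO replicate 2), 315 (WT replicate 1) and 256 (WT replicate 2). On the CPM scale these were 35.1 and 35.5 in the KO, and 32.7 and 28.4 in the WT. The KO libraries nearly coincided, and the WT libraries were lower and further apart. Mean levels (± SD, n = 2) were 35.3 ± 0.246 CPM for KO cells and 30.5 ± 3.08 CPM for WT cells, a difference of 15.5% with a 95% interval of 2.79% to 29.8%. The log2 fold change of 0.21 (SE 0.086) had an adjusted p of 0.140 and an unadjusted p of 0.0154 (edgeR quasi-likelihood test), and 11.04% of all promoters had a smaller p. It was not called in the full data. The estimate depended on which WT library was kept: the log2 fold change was 0.32 without WT replicate 1 and 0.11 without WT replicate 2. The row of the pseudogene CBX3P2, next to SMCHD1 in gene order, held 382, 609, 316 and 255 fragments in the same order of libraries, a difference of at most 0.657% in any library. Whether both rows hold the same fragments was not tested, since CBX3P2 has no entry among the promoter windows.

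MORC4 (Gene ID 79710, chromosome X) yielded 405 fragments (KO replicate 1), 647 (KO replicate 2), 351 (WT replicate 1) and 292 (WT replicate 2). These correspond to 37.1 and 37.9 CPM in the KO, and to 36.5 and 32.3 CPM in the WT. WT replicate 1 lay close under the KO libraries, and WT replicate 2 was the library that stood lower. Group means (± SD, n = 2) were 37.5 ± 0.561 CPM for KO cells and 34.4 ± 2.91 CPM for WT cells. The log2 fold change was 0.13 (SE 0.082), a change of 9.16% with a 95% interval of −2.35% to 22.0%, and it was not called (edgeR quasi-likelihood test, adjusted p 0.378). The neighbouring rows in gene order, CLDN2 and RBM41, held other counts, with 80 and 218 fragments in KO replicate 1.

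MORC3 (Gene ID 23515, chromosome 21) was the most open member, at a level above 97.1% of all tested promoters. Its promoter yielded 935 fragments (KO replicate 1), 1512 (KO replicate 2), 771 (WT replicate 1) and 835 (WT replicate 2). On the CPM scale the KO libraries, at 85.8 and 88.7, both lay between the WT libraries, at 80.1 and 92.5. The groups thus overlapped, with means (± SD, n = 2) of 87.2 ± 2.05 CPM for KO cells and 86.3 ± 8.78 CPM for WT cells. MORC3 was not called, at 0.02 on the log2 scale (SE 0.064; edgeR quasi-likelihood test, adjusted p 0.886). The 95% interval of the change ran from −6.99% to 10.6%, so that a change of the size seen at MORC2, 35.2%, lies outside it. The row of DOP1B, before MORC3 in gene order, had counts within 8.56% of those of MORC3 in every library although its annotated start is more than 2 kb away, so that a near match of counts alone does not show shared fragments.

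MORC1 (Gene ID 27136, chromosome 3), the germline paralogue, was nearly closed in both groups. It yielded 24 fragments (KO replicate 1), 41 (KO replicate 2), 25 (WT replicate 1) and 22 (WT replicate 2). At 2.20 and 2.404 CPM in the KO and 2.60 and 2.44 CPM in the WT, every library lay within a narrow range, with the KO libraries just under the WT libraries. The means (± SD, n = 2) were 2.30 ± 0.144 CPM for KO cells and 2.52 ± 0.113 CPM for WT cells, and only 12.9% of tested promoters had a lower level. MORC1 was not called, at −0.12 on the log2 scale (SE 0.29; edgeR quasi-likelihood test, adjusted p 0.853). At this depth, with a counting error of 21.3% in the smallest library count, the 95% interval ran from −37.9% to 37.0%, so that a change of the size at MORC2, 35.2%, was not detectable. The direction depended on the scaling: it was 0.03 with total count scaling and 0.16 with loess offsets on abundance. MORC1-AS1, an antisense transcript next to it, held 33, 49, 21 and 25 fragments in the same order of libraries and was not called (log2 fold change 0.25, adjusted p 0.640).

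In the order of levels, given per promoter row, MORC1 came lowest in WT cells, followed by MORC2, SMCHD1, MORC4 and MORC3. The mean WT level of MORC3 was 34.3 times that of MORC1, and those of MORC4 and SMCHD1 were 13.7 and 12.1 times. The CPM ranges of MORC2 and SMCHD1 overlapped over the WT libraries, as did those of SMCHD1 and MORC4. Within each library, however, MORC4 held more fragments than SMCHD1, with 351 against 315 in WT replicate 1 and 292 against 256 in WT replicate 2. MORC2 held fewer than SMCHD1 in WT replicate 1 (247 against 315) and more in WT replicate 2 (267 against 256). Whether these levels differ was not tested. In the KO the libraries of MORC2, at 37.0 and 37.5 CPM, lay above those of SMCHD1 and among those of MORC4. Summed over the 4 relatives, the level was 160.2 and 164.5 CPM in the 2 KO libraries, against 151.8 and 155.6 CPM in WT replicates 1 and 2, of which MORC3 supplied 52.7% to 59.4%.

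Fold changes in these libraries moved with abundance, and the members sit at different places along that trend. The median log2 fold change was −0.27 in the abundance class of MORC1, the second of 10 from the bottom, where 1.34% of promoters were called. It was 0.057 in the class of SMCHD1 and MORC2, the seventh, with 4.92% called. In the classes of MORC4 and MORC3 it was 0.061 and 0.083, with 7.74% and 11.9% called. The values of MORC4 and SMCHD1 thus lay above the median of their class, MORC3 lay below it, and MORC1, although negative, lay above the median of its own class. With loess offsets, which remove the trend, the log2 fold changes were 0.16 at MORC1, −0.06 at MORC3, 0.07 at MORC4 and 0.15 at SMCHD1, and that of MORC2 was 0.38. What the trend contributes to the values of single members was not tested.

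**Figure D2:**
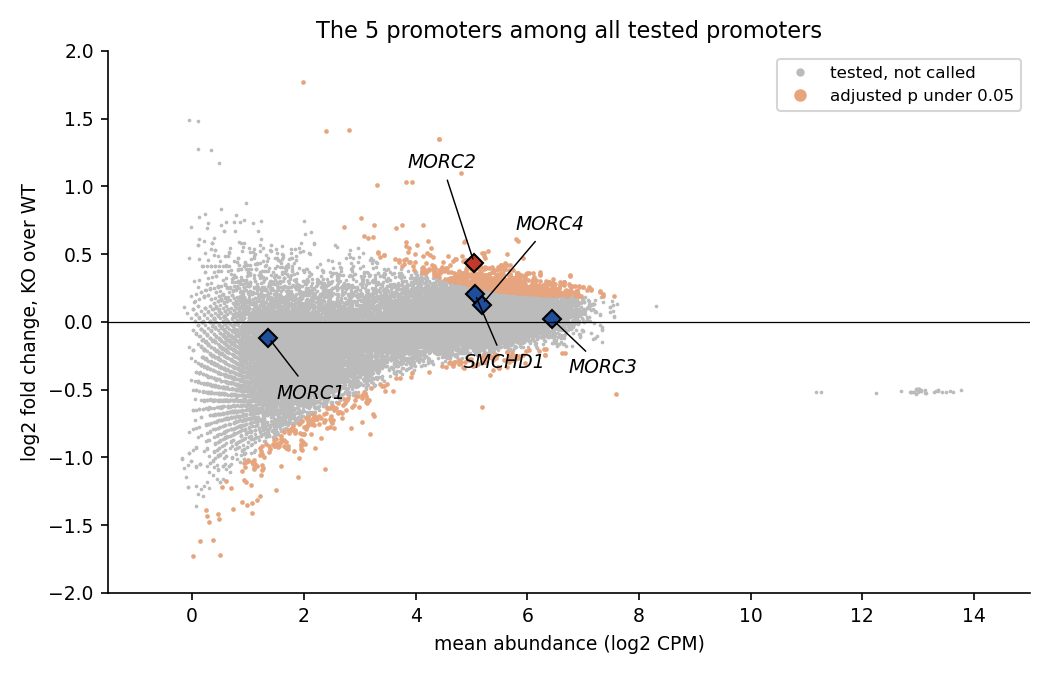
Log2 fold change of KO over WT (vertical axis) against mean abundance in log2 CPM (horizontal axis) for all 27647 tested promoters, with promoters called at an adjusted p under 0.05 in orange. Blue diamonds are the 4 relatives, which all lie among the promoters that were not called, and the red diamond is MORC2, with a log2 fold change of 0.43. The group at the far right holds the mitochondrial rows.

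A ratio within a library needs no scaling, so each relative was also set against the MORC2 promoter of the same library. The MORC3 row held 2.32 and 2.37 fragments per MORC2 fragment in the 2 KO libraries, against 3.12 and 3.13 in WT replicates 1 and 2. The ratio was thus steady within each group and lower in the KO. For MORC4 the ratios were 1.00 and 1.01 in the KO, and 1.42 and 1.09 in the WT. For SMCHD1 they were 0.9504 and 0.947 in the KO, and 1.28 and 0.959 in the WT, so that WT replicate 2 nearly met the KO libraries. For MORC1 they were 0.0596 and 0.0642 in the KO, and 0.101 and 0.0824 in the WT. The KO ratios lay below the WT ratios at all 4, as they did at 89.3% of all other promoters set against MORC2, so this count, whose ratios share 1 denominator, says nothing particular about the relatives. No test of the difference in change between MORC2 and its relatives was run. The difference of mean log2 ratios, KO minus WT, ran from −0.56 at MORC1 to −0.22 at SMCHD1.

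**Figure D3:**
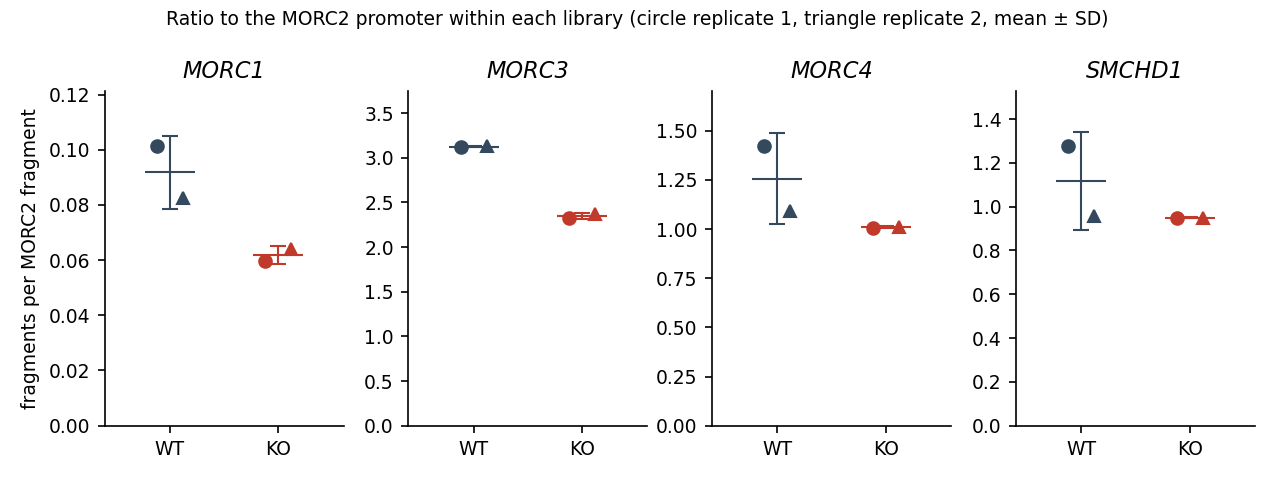
Fragments of each relative per MORC2 fragment in the same library (vertical axis from 0, own scale in each panel) in WT and MORC2 KO cells, with circles for replicate 1, triangles for replicate 2 and the mean ± SD. The KO points lie below the WT points in every panel, narrowly so at SMCHD1, where WT replicate 2 is at 0.959 and the KO libraries are at 0.9504 and 0.947.

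Related genes were described from lists by protein domain or partnership. Of the 15 other GHKL ATPases, all tested, 1 was called higher and 0 lower, with a median log2 fold change of 0.03. The one called was PMS1, a MutL homologue, higher by 0.29 on the log2 scale (SE 0.065; edgeR quasi-likelihood test, adjusted p 0.00129). It reached 94.0 CPM in KO replicate 1 and 89.2 CPM in KO replicate 2, against 77.3 CPM in WT replicate 1 and 71.5 CPM in WT replicate 2. The KO pair thus lay above the WT pair, as it did at 25.2% of all promoters. PMS1 was not called without WT replicate 2. The row of ORMDL1, whose start lies within 2 kb, differed from it by at most 0.309% in any library, so the change cannot be assigned to either gene. The Hsp90 genes HSP90AA1, HSP90AB1 and HSP90B1 had log2 fold changes of 0.06, 0.08 and 0.03, and none was called.

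Among the 3 other genes with a CW-type zinc finger, 1 was called higher and 0 lower, with a median of −0.03. This was ZCWPW2, a reader of methylated histone, which reached 106.7 CPM in KO replicate 1 and 109.6 CPM in KO replicate 2, against 93.6 CPM in WT replicate 1 and 84.4 CPM in WT replicate 2, higher by 0.28 on the log2 scale (SE 0.063, adjusted p 0.00155). It was not called without KO replicate 2 or without WT replicate 2. It cannot be told apart from AZI2, whose start lies within 2 kb and whose counts differed by at most 0.257%. Its paralogue ZCWPW1 had the lowest value of the list, −0.07 (SE 0.068, adjusted p 0.574). The histone demethylase KDM1B lay between them at −0.03. Of the 7 genes for SMC proteins, which share the hinge domain with SMCHD1, 1 was called higher and 0 lower, and the median was 0.11. SMC5, of the complex that resolves recombination intermediates, had the highest value, 0.22 (SE 0.068, adjusted p 0.0328), and the cohesin gene SMC3 the lowest, 0.05 (SE 0.068, adjusted p 0.737). The row of its divergent transcript SMC5-DT, which starts within 2 kb, matched SMC5 to within 0.41% in every library. With loess offsets, the edgeR 4 fit or the replicate block no SMC gene was called, while 1, 2 and 2 had an unadjusted p under 0.05.

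The last list held 8 partners, among them the HUSH subunits, the PML nuclear body genes PML, DAXX and SP100, and LRIF1, which binds SMCHD1. In it 2 were called higher and 0 lower, with a median of 0.13. These were the HUSH subunits TASOR (0.44, SE 0.084) and PPHLN1 (0.26, SE 0.082), with adjusted p-values of 0.000124 and 0.0394 (edgeR quasi-likelihood test). With loess offsets, a mean count of at least 50, the edgeR 4 fit, limma-trend or the replicate block, 1 partner was called, as without KO replicate 2 or without WT replicate 2. ZCRB1, a close gene, had nearly the same value as PPHLN1 (0.26, adjusted p 0.0398), whereas the rows adjacent to TASOR held other counts. Whether the ZCRB1 and PPHLN1 rows hold the same fragments was not tested, so the change is not assigned to PPHLN1 alone. The adjacent row of PRICKLE1, whose start is more than 2 kb away, differed from PPHLN1 by at most 16.8% in any library. It was not called (0.21, adjusted p 0.148). LRIF1 reached 88.1 CPM in KO replicate 1 and 82.7 CPM in KO replicate 2, against 81.2 CPM in WT replicate 1 and 74.6 CPM in WT replicate 2, and was not called at 0.13 (SE 0.064, adjusted p 0.249). The lowest value was −0.51 at SP100 (SE 0.25, adjusted p 0.216), which held 29 to 52 fragments per library. Each list is small, and its share of calls was not tested against the 4.45% over all promoters. The share called rose with abundance: it was 11.9% in the abundance class of PMS1, ZCWPW2 and SMC5. In the classes of PPHLN1 and TASOR it was 7.74% and 4.92%. The calls in all 4 lists were lost with total count scaling and with the DESeq2 Wald test. In these fits 2 and 2 GHKL, 1 and 1 CW, 2 and 1 SMC and 3 and 2 partner genes had an unadjusted p under 0.05. Over all promoters 10.7% and 5.16% had such a p, and the lists were not tested against these shares.

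**Figure D4:**
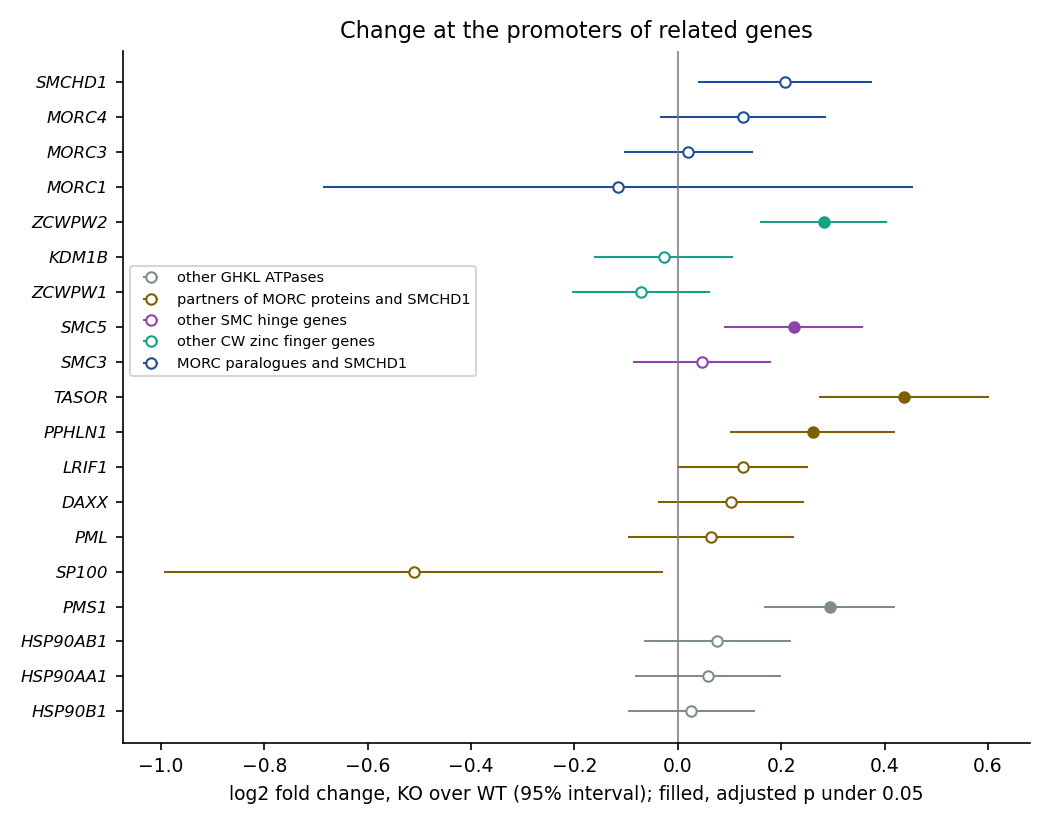
Log2 fold change of KO over WT with its 95% interval (horizontal axis) for the MORC paralogues and SMCHD1 in blue and for the genes of the 4 related lists named in the text, except MPHOSPH8, in other colours, sorted within each list. Filled points had an adjusted p under 0.05, and all 4 blue points are open.

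For each member, the tested promoters nearest to it were found by the Euclidean distance of log2 CPM over the 4 libraries, leaving out mitochondrial rows and rows within 5 places in gene order. Nearest to SMCHD1 were RESF1, at a distance of 0.0229 and with 378, 603, 316 and 254 fragments in that order of libraries, EDARADD (0.0571) and TPRG1-AS1 (0.0580). Nearest to MORC4 were POLQ (0.0453), ANKRD36 (0.0497) and PPM1F-AS1 (0.0535). Nearest to MORC3 were WASF1 (0.103), GLRX5 (0.107) and CDC40 (0.111). For MORC1 they were LOC101929319 (0.0777), LOC728158 (0.0843) and ATP13A4-AS1 (0.0877). None of these 12 promoters was called, with adjusted p-values from 0.158 to 0.927 (edgeR quasi-likelihood test). They were picked for values close to those of uncalled members in the same libraries, so this outcome adds no support. A short distance over 4 libraries describes a like level and pattern of counts, and nothing more was read from it.

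**Figure D5:**
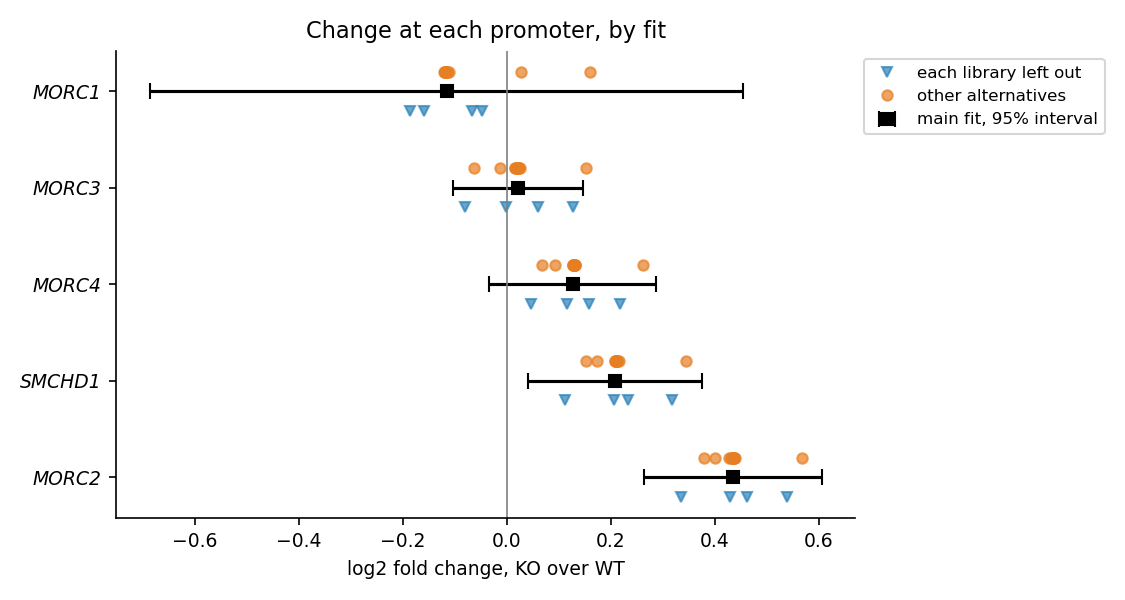
Log2 fold change of KO over WT (horizontal axis) for the 4 relatives and MORC2. Black squares with bars are the main estimate and its 95% interval, blue triangles leave out 1 library each and orange circles are the other alternatives. The point estimates lie on both sides of 0 at MORC1 and MORC3 but stay above 0 at MORC4, SMCHD1 and MORC2. The bars of MORC1, MORC3 and MORC4 include 0.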

How the data were processed

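ATAC-seq was performed on 2 WT and 2 MORC2 KO libraries of HEK293T cells. The authors trimmed paired-end reads, aligned them with bowtie2 to CHM13, kept properly paired reads above a mapping quality minimum and removed duplicates with Picard. The deposited table holds their raw counts per promoter, 1 row per NCBI Gene ID. The study defines a promoter as 2 kb around the start; whether this table used that window is not given in the sources used here. A RefSeq table on GRCh38.p14 gave symbols for 28763 of 28775 IDs and gene order. The WT peak list, on CHM13, was not used.

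Rows were filtered with filterByExpr and scaled by TMM, and the groups were tested with edgeR 4.0.16 in R 4.3.3 (quasi-likelihood F-test, legacy fit, no covariates). P-values are two-sided, adjusted by Benjamini-Hochberg over 27647 rows, and called under 0.05. Standard errors and 95% intervals derive from the F statistics. They combine counting noise with a dispersion estimated in part from all tested promoters, and are not the spread of the libraries at a single promoter. Alternatives, which include DESeq2 1.42.0 and limma 3.58.1, are given in the closing section. The scripts were tested on simulated data. Total counts per library were 9435801 to 15152636, and counting error covers sampling only, as fragments carry no molecular identifiers.

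The members and lists were chosen with earlier results of these data known. Named besides the members and MORC2 are the adjacent rows in gene order, the 3 most alike promoters per member, and in each list the called, highest and lowest genes. The Hsp90 genes, KDM1B, LRIF1, MPHOSPH8 and rows with nearly the same counts as listed genes were named after their values were seen. Some listed genes enter the counts and medians but are not reported here by name.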

Additional observations from a re-analysis of the deposited data

How the results depend on the processing

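Libraries differ in depth and only 2 stand in each group, so that small changes at MORC1 (22 to 41 fragments) are beyond these data. None of the 4 relatives was called in any of the 12 alternatives that kept all libraries; the mean count minimum of 50 left MORC1 untested. With loess offsets and with DESeq2 0 members had an unadjusted p under 0.05 (13.01% and 5.16% of all promoters did), and in the others 1 did, SMCHD1 (10.7% to 20.4% of all promoters). SMCHD1 ranged from 0.15 to 0.34 on the log2 scale and MORC4 from 0.067 to 0.26 in these. Total count scaling shifted the median of all promoters to 0.12.

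MORC1 changed sign with total count scaling (0.027) and loess offsets (0.16), and MORC3 with loess offsets (−0.064) and a mean count of at least 50 (−0.014). With each library left out in turn, log2 fold changes ranged from −0.19 to −0.048 at MORC1, −0.081 to 0.13 at MORC3, 0.045 to 0.22 at MORC4, 0.11 to 0.32 at SMCHD1 and 0.33 to 0.54 at MORC2. MORC3 was −0.0011 without KO replicate 2 and −0.081 without WT replicate 1. SMCHD1 was called without WT replicate 1, so 0 to 1 members were called, and MORC2 lost its call without KO replicate 2 (adjusted p 0.0837). Neither total count scaling (0.57, adjusted p 0.240) nor the DESeq2 Wald test (0.44, adjusted p 0.363) called MORC2.

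All promoters called numbered 20 with total count scaling, 388 with loess offsets, 787 at a mean count of at least 50, 7 with DESeq2, 717 with limma-trend, 765 with the replicate block, 2249 at an adjusted p under 0.1, and 41 (without KO replicate 2) to 1637 (without WT replicate 1) with each library left out. Without WT replicate 2 there were 230. With total count scaling 0 were called in each of the 4 related lists (2 other GHKL ATPases, 1 CW, 2 SMC and 3 partner genes at an unadjusted p under 0.05), and likewise with DESeq2 (2, 1, 1 and 2). Over all promoters 10.7% and 5.16% had such a p in these fits. Of the SMC genes 0 were also called with loess offsets, a mean count of at least 50, the edgeR 4 fit, limma-trend and the replicate block (1, 2, 2, 2 and 2 at an unadjusted p under 0.05), and in those 5 fits 1 partner was called. An adjusted p under 0.1 gave 2 other GHKL ATPases. Leaving out each library gave 0 to 2 other GHKL ATPases, 0 to 1 CW genes, 0 to 2 SMC genes and 1 to 2 partners. PMS1 and ZCWPW2 lost their calls without WT replicate 2, ZCWPW2 also without KO replicate 2, and the SMC count was 0 without any 1 of KO replicate 1, KO replicate 2 and WT replicate 2. The cause was not tested. Higher and lower calls numbered 216 and 172 with loess offsets, 520 and 267 at a mean count of at least 50, 19 and 1 with total count scaling and 7 and 0 with DESeq2.

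Libraries with the same replicate number did not deviate together (r = 0.00023 across nuclear promoters, which are not independent), and the pairing was therefore not used. With the replicate block the members stayed uncalled, with log2 fold changes of −0.12, 0.014, 0.13 and 0.21 at MORC1, MORC3, MORC4 and SMCHD1.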

Other observations

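At MORC2, MORC3, MORC4 and SMCHD1 the WT libraries differed from each other more than the KO libraries did, and not in a common direction. MORC3 and MORC2 were more open in WT replicate 2 than in WT replicate 1, by 0.21 on the log2 scale at each, whereas MORC4 and SMCHD1 were more open in WT replicate 1, by 0.17 and 0.21. Between the KO libraries the same 4 promoters differed by −0.048, −0.020, −0.031 and −0.014, replicate 1 minus replicate 2, for MORC3, MORC2, MORC4 and SMCHD1. EMILIN2, the row after SMCHD1 in gene order, counted 210 and 347 fragments in the KO libraries against 146 and 148 in the WT libraries, and was not called (log2 fold change 0.34, SE 0.11; edgeR quasi-likelihood test, adjusted p 0.0590). CHAF1B, after MORC3, was at 0.03 on the same scale (adjusted p 0.859).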
